A study of Gallus gallus with 8 samples.

Results

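Fibroblasts and keratinocytes of chicken skin were compared across every culture state for which keratinocytes were sequenced. The comparison used all 8 RNA-seq libraries of the series. Of these, 1 library came from primary fibroblasts grown to confluence and 7 came from primary keratinocytes. The keratinocyte libraries were 1 subconfluent culture (titled KC20prol), 3 confluent monolayers (KC20d8, KC34wod8 and KC56wod8) and 3 skin equivalents (SE20d7, SE34wo and SE56wo), which are layered cultures in 3 dimensions. The labels name no bird strain, age or treatment and do not say whether libraries came from separate birds or cultures. They also do not say which other cells a skin equivalent held.

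All 24902 counted features entered, and the question was which of them set the cell types apart whatever the culture state. A feature was taken as separating when its fibroblast value lay above the highest or below the lowest of the 7 keratinocyte values. Values are CPM, read counts scaled to a common library total, after TMM scaling, which corrects for differences in library composition. The 15019 features that passed the default expression filter of edgeR in at least 1 library are called tested below. Names in the deposited files cover 143 features. The other 24759 have an ENSGALG identifier alone. Collagens, vimentin and other genes known from fibroblasts could therefore not be looked up, and the fibroblast label could be checked only through what the library lacked.

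Fibroblasts are the mesenchymal cells that build the dermis and its collagen-rich matrix, whereas keratinocytes are the epithelial cells that build the epidermis. Keratinocytes fill their cytoplasm with filaments made of pairs of type I and type II keratins. As they cornify, they switch on genes of the epidermal differentiation complex (EDC), a cluster encoding cornified-layer proteins. In birds and reptiles corneous beta-proteins (CBP) also stiffen scales, claws, beaks and feathers. Names starting with Krt are keratins in the deposited files, names ending in -EDC are taken as the EDC, and CBP names end in -C, -F, -K or -S, endings that the files do not spell out.

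Gene counts ranged from 27329706 to 36728801 per library, with 28767054 in fibroblasts. In the fibroblast library 3 counts, the smallest number read as above 0, corresponded to 0.116 CPM, and in the keratinocyte libraries to 0.0807 to 0.117 CPM. The fibroblast library stood apart in its fragments given to no gene. Of its fragments, 13.7% were unassigned and 2.53% were ambiguous between genes, against 17.3% to 22.2% and 0.485% to 0.815% in keratinocyte libraries. Whether counting used the strand is not stated in the labels, and the part of this difference in the results was not tested. Monolayer 1 was the keratinocyte library most like fibroblasts, with a Pearson correlation across tested features of 0.758 on the log2(CPM + 1) scale, against 0.709 to 0.735 for the other 6. In bulk RNA, fewer cells of a type and less RNA per cell cannot be told apart.

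The fibroblast value lay above the highest keratinocyte library for 3946 features (26.3% of those tested) and below the lowest for 4297 (28.6%). It lay between them, or tied with the lowest at 0, for 6776. The median ratio to the nearest keratinocyte library was 2.06 among features above and 1.61 among features below. A gap under 1.5-fold accounted for 31.3% of the former and 45.1% of the latter. With counts under 3 set to 3 in the ratio, 2036 features (13.6%) were at least 2-fold above every keratinocyte library and 1561 (10.4%) at least 2-fold below. At 10-fold these numbers were 402 (2.68%) above and 450 (3%) below, and at 100-fold 32 above and 133 below. Level was taken as the mean CPM over all 8 libraries. Of features at least 10-fold above, 121 had a mean under 1 CPM and 161 one of 1 to 8 CPM, against 0 and 49 below. These numbers are no like comparison, since the mean holds 1 fibroblast value and 7 keratinocyte values. The floor of 3 counts limits how large a drop can be measured at low levels. A feature at least 10-fold below had at least 10 times the floor of 0.116 CPM in all 7 keratinocyte libraries. The 0 under 1 CPM was therefore fixed in advance. Whether the 2 sides differed in level was not tested. Because 1 library stood against 7, an exact permutation test of a single feature could not give a p under 0.125, so this separation is a description.

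**Figure D1:**
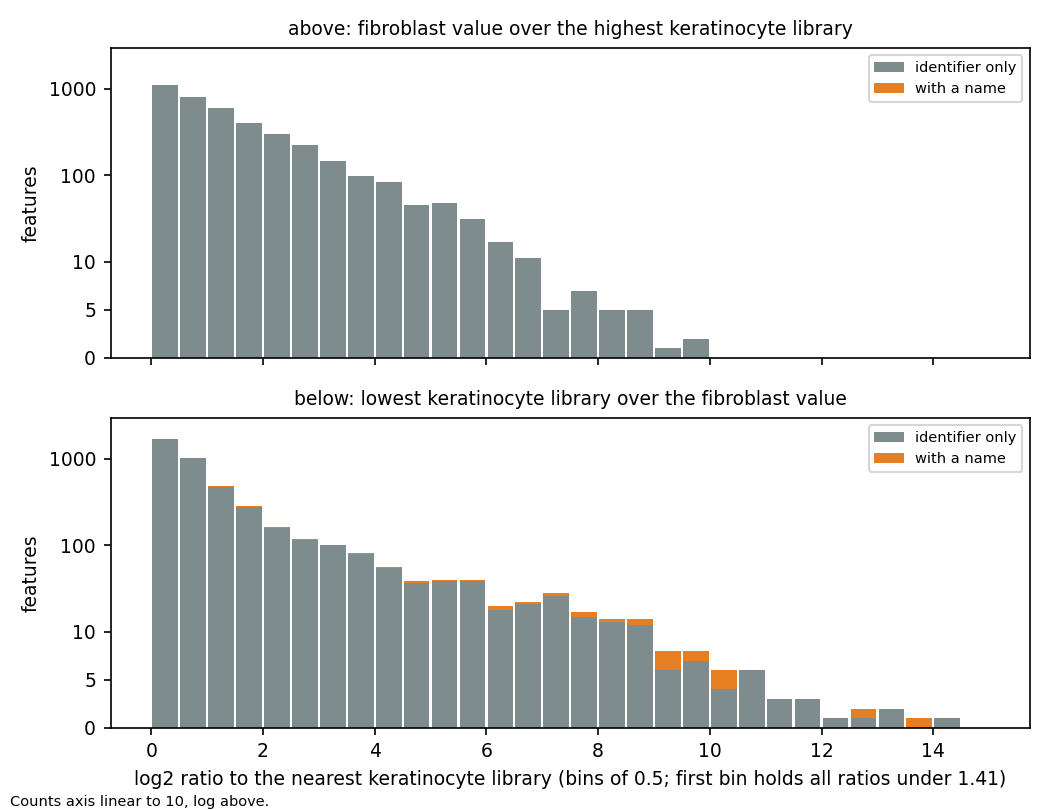
Number of tested features (axis linear to 10, log above) by the log2 ratio of the fibroblast value to the nearest keratinocyte library, for features above the highest (top) and below the lowest (bottom) of 7 keratinocyte libraries. Named features (orange, most visible at ratios of 10-fold and more) occur among those below, where 24 are at least 10-fold down, and 0 occur among those above.

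The gap exceeded the whole keratinocyte range for a smaller group. Across the 7 keratinocyte libraries, the highest value of a tested feature was a median of 3.75 times its lowest. The step from fibroblasts to the nearest keratinocyte library was larger than that feature's own range among keratinocytes for 683 features above (17.3% of them) and for 1140 below (26.5%). Features above with 0 counts in a keratinocyte library have no such range. They are not counted in the 683 but remain in the total behind the 17.3%. A feature below has counts in every keratinocyte library, so the percentages above and below are not comparable.

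Clear presence in one cell type and absence from the other was seen in both directions. Fibroblasts had at least 100 counts of 43 features that stayed at 3 counts or fewer in every keratinocyte library, and 0 of these carried a name. In turn, 153 features had at most 3 fibroblast counts and at least 100 counts in all 7 keratinocyte libraries, and 16 of these carried a name. Of the 100 features with the highest fibroblast CPM, 81 lay above every keratinocyte library, 22 of them by at least 10-fold, and 2 lay below. Of the 100 with the highest keratinocyte median, 44 lay below and 20 by at least 10-fold, of which 5 were named, and 22 lay above. Choosing features by their level in one cell type favours the direction in which that cell type is higher.

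Taken by share of all gene counts, the 402 features at least 10-fold above held 21.3% of the fibroblast library. Subconfluent keratinocytes had 0.191% of their counts in this set. Monolayers 1 to 3 had 0.536%, 0.278% and 0.320%, and the skin equivalents, in the same order, 0.458%, 0.563% and 0.371%. The 450 features at least 10-fold below held 0.0464% of fibroblast counts, 12.8% in subconfluent keratinocytes, 8.14% to 9.99% in monolayers and 13.6% to 16.7% in skin equivalents. The choice of these features fixed the direction, and the shares show only how much of each library they made up.

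**Figure D2:**
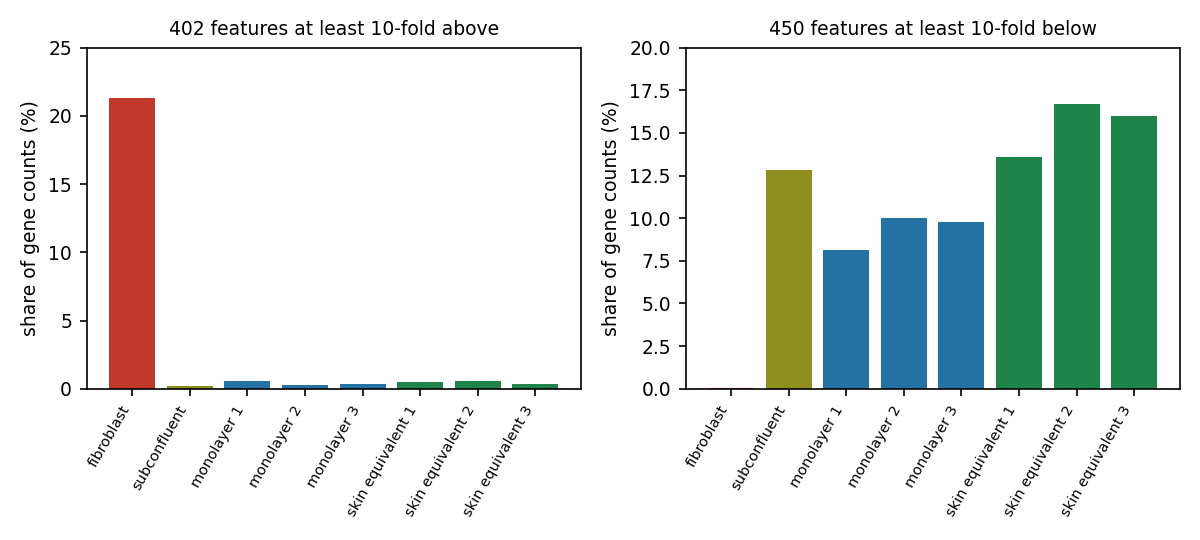
Share of gene counts in percent (linear axes from 0) held in each of the 8 libraries by the 402 features at least 10-fold above (left) and the 450 at least 10-fold below (right) every keratinocyte library. The first set held 21.3% in fibroblasts and at most 0.563% in a keratinocyte library, and the second 0.0464% in fibroblasts and at least 8.14% in a keratinocyte library.

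Monolayer 1 was the keratinocyte library nearest to fibroblasts for more features than any other, in both directions. It held the highest keratinocyte value for 26.8% of features above and the lowest for 24.2% of features below. For monolayer 2 these shares were 4.56% and 5.59%, and for monolayer 3 they were 5.09% and 10.1%. Monolayers 2 and 3 differed less from each other than from monolayer 1 (chi-square per degree of freedom 22.3, against 241 and 225). Skin equivalent 2 was nearest for 143 of the 402 features at least 10-fold above and monolayer 1 for 117. Without skin equivalent 2 the number at least 10-fold above was 508, and without monolayer 1 it was 513. Without any other single keratinocyte library it was 409 to 446. Leaving out a library can only narrow the keratinocyte range, so a rise was fixed in advance apart from changes in scaling and filter. With all 3 skin equivalents left out, 723 features were at least 10-fold above and 726 at least 10-fold below, against 584 and 523 with the 3 monolayers left out. The same limit holds for these numbers.

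The edgeR quasi-likelihood test compared fibroblasts with the equal-weight mean of the 3 keratinocyte states in one fit of the 8 libraries. It assumes that the lone fibroblast library varies like the replicated groups and is no replicate check. Separation and test used the same values, so features chosen for a large gap were likely to be called. Overlap between them is no independent support. In this test 3354 features (22.3%) were higher and 3234 (21.5%) lower in fibroblasts at an adjusted p under 0.05. Of the features above, 3073 (77.9%) were called in this fit, and of those below 2989 (69.6%). All 402 features at least 10-fold above were called, and 449 of the 450 at least 10-fold below. A further 526 features were called although the fibroblast value lay inside the keratinocyte range or tied with its lowest value at 0. When the 7 keratinocyte libraries formed a single group, so that culture state entered the spread, 1311 were higher and 836 lower.

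Among features with an identifier only, ENSGALG00000027716 and ENSGALG00000004154 lay furthest above at a mean log2 CPM of at least 3. ENSGALG00000027716 had 987.6 CPM in fibroblasts and 0.410 to 1.06 CPM in keratinocytes, a ratio of 936 to the nearest library (log2 fold change 10.45 ± 0.44 standard error, adjusted p = 8.89e-05 by edgeR). ENSGALG00000004154 had 1955 CPM in fibroblasts and 0.172 to 2.42 CPM in keratinocytes, a ratio of 807 to skin equivalent 2 (2317 without that library). On the other side, ENSGALG00000012790 had 1 count in fibroblasts and 2279 to 7283 CPM in keratinocytes. Its lowest keratinocyte library, monolayer 1, was 58981-fold higher with a counting interval from 10585. With the fibroblast value set to 3 counts this ratio was 19660, and 50430 without monolayer 1. ENSGALG00000027207 had 3 counts in fibroblasts and 1025 to 3072 CPM in keratinocytes, with a ratio of 8842 to monolayer 2 (counting interval 3025 to 42878).

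All named features that separated the cell types were lower in fibroblasts. Of the 117 tested names, 70 had a fibroblast value below every keratinocyte library (59.8%, beside 28.6% of all tested features). Those above numbered 0 (beside 26.3% of all tested features). A further 5 lay inside the keratinocyte range and 42 were at 0 counts in fibroblasts and in at least 1 keratinocyte library. The other 26 names had too few counts to be tested. The authors' names cover keratins and genes of cornification, so this direction follows from what was named. Most of the 117 passed the filter through keratinocytes alone, since 92 had 0 fibroblast counts. Of the 70 below, 15 rested on a keratinocyte library with 3 counts or fewer. Of the 117, 41 were at least 2-fold below (beside 10.4% of all tested features) and 24 at least 10-fold below (beside 3%). In the edgeR fit 61 of the 117 were lower and 1 was higher (beside 21.5% and 22.3% of all tested features).

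Keratins supplied 15 of the 24 names at least 10-fold below, out of 31 tested keratins (beside 3% of all tested features). In all, 26 of 31 tested keratins lay below every keratinocyte library (beside 28.6% of all tested features), 18 of them by at least 2-fold (beside 10.4%). Of the 31, 17 had 0 fibroblast counts (beside 931 of all 15019 tested features) and could only lie below or tie at 0. In the edgeR fit 27 keratins were lower (beside 21.5% of all tested features) and 4 were not called. With the keratinocytes as a single group 9 keratins were lower, beside 836 of all 15019 tested features. The median difference between fibroblasts and the mean of the keratinocyte libraries was -7.16 on the log2 scale with counts under 3 set to 3, against -0.17 over all tested features. All keratins together held 0.00310% of fibroblast counts. Their share was 4.49% in subconfluent keratinocytes and 1.58%, 2.35% and 2.06% in monolayers 1 to 3. Skin equivalents reached 9.06%, 12.6% and 12.8%. The share was lowest in fibroblasts. An exact permutation test (two-sided, 1 library against 7) returned p = 0.375. It compared the distance of each library from the mean of the other 7, so differences between culture states enter it. It cannot decide whether fibroblasts lay apart from all keratinocyte libraries.

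**Figure D3:**
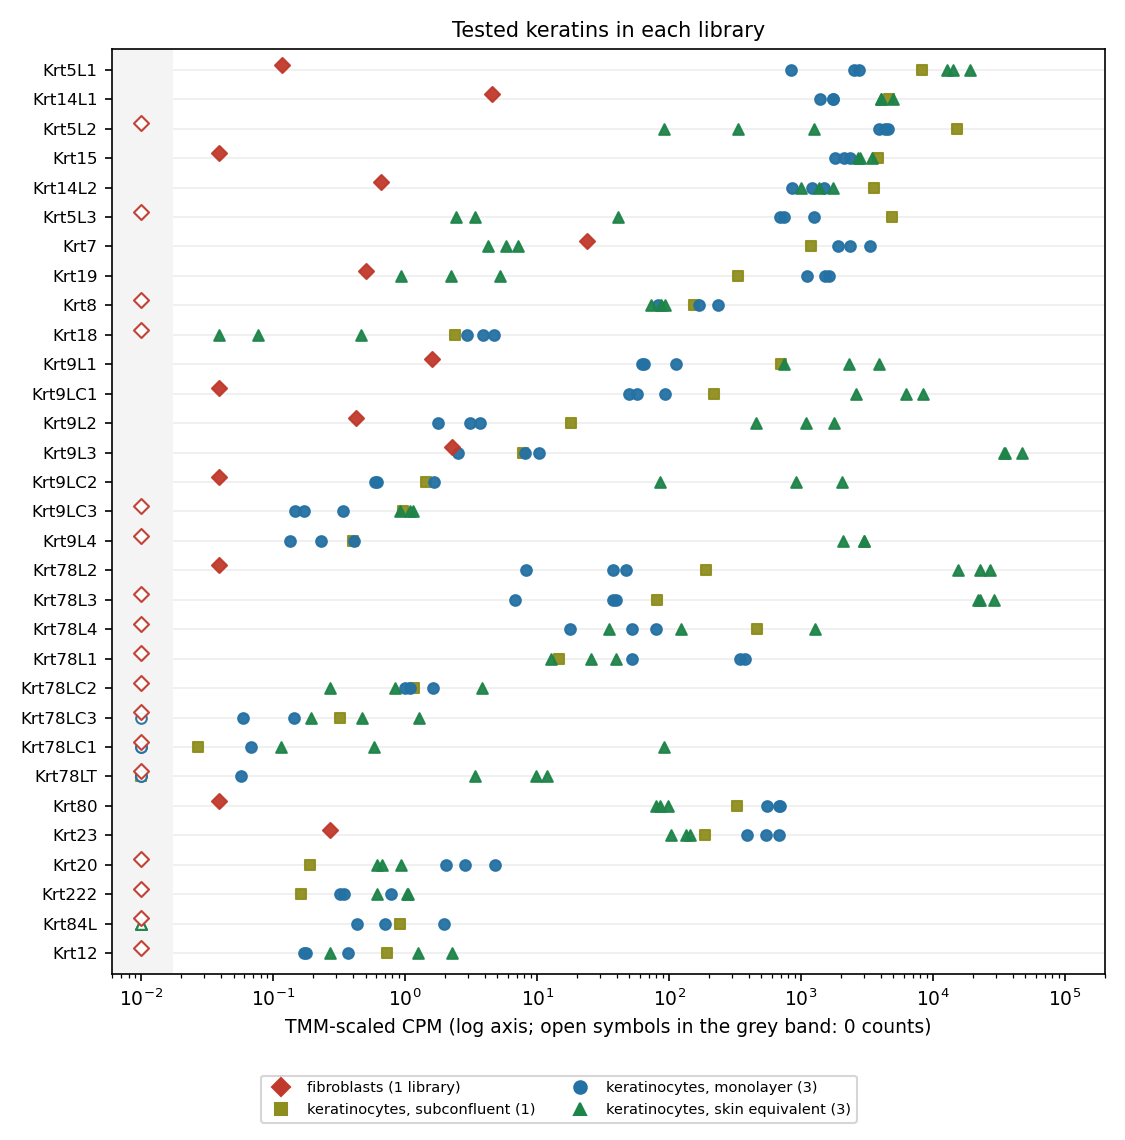
TMM-scaled CPM (log axis) of the 31 tested keratins in each library, grouped by name and ordered within groups by the keratinocyte median, with open symbols for 0 counts. The fibroblast value (diamond) lay left of every keratinocyte symbol for 26 of the 31, and inside their range for Krt7.

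Basal-type keratins lay far below in every culture state. In mammals KRT5, KRT14 and KRT15 are made by keratinocytes of the basal layer, which divide and renew the epidermis. All 6 tested Krt5L, Krt14L and Krt15 names lay below every keratinocyte library, by at least 10-fold each (beside 3% of all tested features). All 6 were lower in the edgeR fit (beside 21.5%). Of the 6, 2 had 0 fibroblast counts. Those 2 passed the filter through keratinocytes and could only lie below or tie at 0, so these shares are no like comparison. Krt15 was the separating name with the smallest range among keratinocytes. It had 1 count in fibroblasts, 3804 CPM in the subconfluent library, 1792, 2357 and 2126 CPM in monolayers and 2711, 3429 and 2776 CPM in skin equivalents. The keratinocyte values spanned 2.12-fold, and the lowest was 46387-fold over the fibroblast value with a counting interval from 8325 (log2 fold change -16.03 ± 0.80, adjusted p = 9.32e-05 by edgeR). Krt15 thus lay far below all 7 libraries while varying little between the culture states.

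Krt14L1 and Krt14L2 kept measurable traces in fibroblasts. Krt14L1 had 117 counts (4.52 CPM) there, 4642 CPM in the subconfluent library, 1380, 1729 and 1732 CPM in monolayers and 3997, 4021 and 4980 CPM in skin equivalents. The lowest of these was 305-fold higher than in fibroblasts (counting interval 255 to 369), and the 7 libraries spanned 3.61-fold. Krt14L2 had 17 counts in fibroblasts and 858 to 3587 CPM in keratinocytes, with monolayer 1 1306-fold higher (816 to 2242).

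The Krt5L names separated the cell types by large factors but depended on culture state. Krt5L1 had 3 counts in fibroblasts and spanned 842 CPM in monolayer 1 to 19067 CPM in skin equivalent 2, with a ratio of 7259 at the lowest library (counting interval 2484 to 35202) and 21700 without monolayer 1. Krt5L2 had 0 counts in fibroblasts. It had 15310 CPM in the subconfluent library, 4561, 4308 and 3902 CPM in monolayers and 331, 1255 and 91.7 CPM in skin equivalents 1 to 3. It was at least 791-fold lower in fibroblasts than in skin equivalent 3, and at least 2855-fold lower than in the next library. Krt5L3, named here after its values were seen, was also at 0 counts in fibroblasts and went down to 2.42 CPM in skin equivalent 3, where fibroblasts were at least 20.9-fold lower. Its highest value was 4850 CPM in the subconfluent library.

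Keratins known from simple epithelia in mammals behaved differently from each other. Krt8, a type II keratin, had 0 counts in fibroblasts, 155 CPM in the subconfluent library, 82.2, 235 and 168 CPM in monolayers and 93.8, 86.6 and 73.1 CPM in skin equivalents. It was at least 631-fold lower in fibroblasts than in any keratinocyte library. Krt18, the type I partner of Krt8 in mammals, was at 0 counts in fibroblasts too. Its level in skin equivalents 2 and 3 was only 0.0391 and 0.0767 CPM, at 1 and 2 counts, so a difference from these libraries was not detectable at this depth. The edgeR fit called it lower (adjusted p = 0.0211), though not against skin equivalents alone (0.115), with the keratinocytes as a single group (0.183) or with the title codes 20, 34 and 56 of the keratinocyte libraries as a block (0.0536). Krt19 had 13 counts (0.502 CPM) in fibroblasts and 333 to 1638 CPM in the 4 monolayer cultures, but 2.22, 5.20 and 0.921 CPM in skin equivalents 1 to 3. Skin equivalent 3 was 1.83-fold over fibroblasts with a counting interval of 0.897 to 3.92 (4.42-fold without that library). The mean contrast was called (log2 fold change -7.76 ± 1.2, adjusted p = 0.00290 by edgeR), but the contrast with skin equivalents alone was not (-2.46, adjusted p = 0.0804).

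Krt7, a type II keratin of simple epithelia, did not separate fibroblasts from keratinocytes as a class. Fibroblasts had 618 counts, or 23.9 CPM. The subconfluent library had 1187 CPM and monolayers 1 to 3 had 1915, 3336 and 2340 CPM, all at least 49.7-fold higher. Skin equivalents 1 to 3 had 5.82, 7.11 and 4.22 CPM, and fibroblasts were 3.36-fold over the highest of them. Against monolayers the log2 fold change was -6.73 (adjusted p = 6.11e-04 by edgeR) and against skin equivalents it was 2.06 (adjusted p = 0.00714), with the fibroblast library shared by both. The mean contrast of -3.43 ± 0.54 (adjusted p = 0.00279) hence averaged opposite directions, and it was not called when the keratinocytes formed a single group (adjusted p = 0.412).

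This position between culture types was shared by many features without a name. Of the 15019 tested, 776 (5.17%) lay below all 4 monolayer cultures and above all 3 skin equivalents, as Krt7 did, and 1 of these carried a name. In the other direction 523 (3.48%) lay above all 4 monolayer cultures and below all 3 skin equivalents, where 1 carried a name as well. Both sets were counted by position alone, with no margin and no test.

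All 7 Krt9L names were highest in a skin equivalent and lowest in a monolayer, so a monolayer set the margin to fibroblasts. Each lay below every keratinocyte library (beside 28.6% of all tested features), 4 by at least 2-fold (beside 10.4%). Each was lower in the edgeR fit (beside 21.5%). Of the 7, 2 had 0 fibroblast counts. Those 2 passed the filter through keratinocytes and could only lie below or tie at 0, so these shares are no like comparison. Krt9LC1 had 1 fibroblast count and 2615, 8386 and 6246 CPM in skin equivalents. Monolayer 2, its lowest keratinocyte library, was 1293-fold over fibroblasts with a counting interval from 232. With the fibroblast value set to 3 counts this ratio was 431. Krt9L1 kept 41 counts (1.58 CPM) in fibroblasts, 39.6-fold under monolayer 3 (29.1 to 55.3). The fit no longer called either with the keratinocytes as a single group (adjusted p = 0.117 and 0.127). Krt9L3, named after its values were seen, showed how narrow a separation could be. It had 59 counts (2.28 CPM) in fibroblasts and 2.49 CPM in monolayer 1, a ratio of 1.09 with a counting interval of 0.766 to 1.57 that spans equality, and 3.43 without monolayer 1. In skin equivalent 2 it reached 46960 CPM.

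Of 8 Krt78L names 5 lay below every keratinocyte library (beside 28.6% of all tested features). The other 3 were at 0 counts in fibroblasts and in at least 1 keratinocyte library. In all, 7 of the 8 had 0 fibroblast counts and could only lie below or tie at 0. Krt78L4 and Krt78L1 had 0 fibroblast counts and were at least 152-fold and 111-fold lower than in their lowest keratinocyte libraries, monolayer 1 and skin equivalent 3. Without monolayer 1 the bound for Krt78L4 was 302-fold, computed with the scaling of all libraries. In the edgeR fit both were lower (adjusted p = 0.0244 and 0.00645), but neither was with limma-voom (0.166 and 0.0720) or with the keratinocytes as a single group (0.0762 and 0.0720), and without the expression filter Krt78L4 was not (0.0524). Among the remaining keratins Krt80 and Krt23 separated by the largest ratios. Krt80 had 1 count in fibroblasts and 79.5 to 694 CPM in keratinocytes, 2056-fold at the lowest with a counting interval from 369. With the fibroblast value set to 3 counts this ratio was 685.5. Krt23 had 7 fibroblast counts and 104 to 680 CPM in keratinocytes, 383-fold at the lowest (186 to 953).

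Names of the epidermal differentiation complex were nearly silent in fibroblasts, where all 35 together took 7 counts. Of 31 tested, 24 lay below every keratinocyte library (77.4%, beside 28.6% of all tested features), 14 by at least 2-fold (beside 10.4% of all) and 7 by at least 10-fold (beside 3% of all). These shares are no like comparison. Of the 31, 26 had 0 fibroblast counts, beside 931 of all 15019 tested features. Those 26 passed the filter through keratinocytes and could only lie below or tie at 0. In the edgeR fit 20 were lower, beside 21.5% of all. The fit called 10 EDC names lower against monolayers alone and 25 against skin equivalents alone, and 3 with the keratinocytes as a single group. Of all 15019 tested features, 3458, 3242 and 836 were lower in these 3 fits. Their share of gene counts was 0.113% in subconfluent keratinocytes, 0.0317% to 0.0855% in monolayers and 0.682% to 2.04% in skin equivalents. For them the two-sided exact permutation test used above, with the same limit, gave p = 0.375. Most of these genes were low in monolayers, so the lowest keratinocyte library was near the floor for many of them.

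EDQL-EDC and EDPE-EDC were the members with the largest ratios. EDQL-EDC had 0 counts in fibroblasts, 455 CPM in the subconfluent library, 665, 248 and 164 CPM in monolayers and 6398, 2141 and 5266 CPM in skin equivalents. It was at least 1416-fold lower in fibroblasts than in monolayer 3, and at least 2142-fold lower than in the next library. EDPE-EDC had 1 count in fibroblasts and ran from 24.0 CPM in monolayer 1 to 585 CPM in skin equivalent 3. The lowest library was 620-fold over fibroblasts with a counting interval from 111, and the ratio was 1762 without monolayer 1. With the fibroblast value set to 3 counts the ratio to the lowest library was 206.8. Both names were thus measured in keratinocytes of every culture state and had at most 1 count in fibroblasts.

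**Figure D4:**
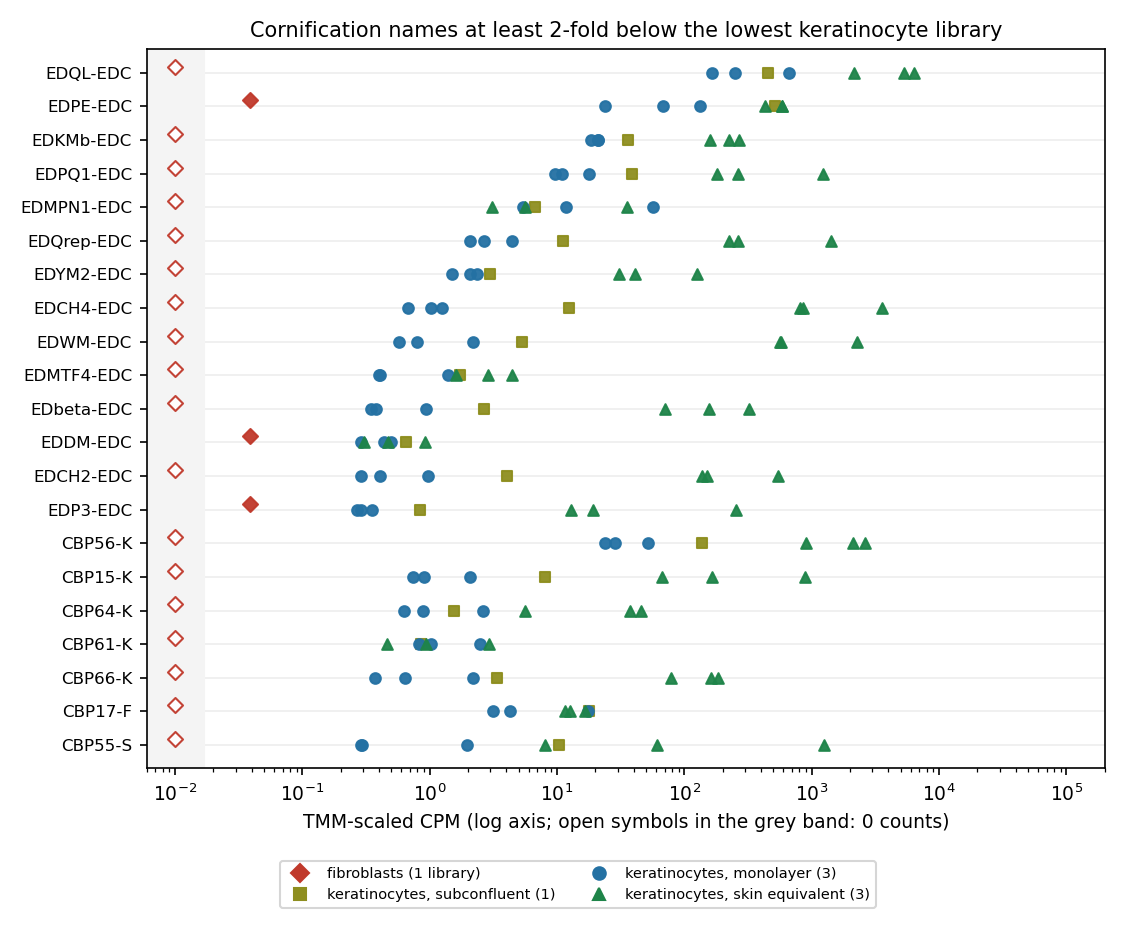
TMM-scaled CPM (log axis) in each library of the 21 EDC and CBP names at least 2-fold below the lowest keratinocyte library, with open symbols for 0 counts. Fibroblasts (diamonds) had 0 counts or 1 count for each, while the lowest keratinocyte value reached 164 CPM for EDQL-EDC.

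Corneous beta-proteins gave fewer separations. Fibroblasts took 2 counts of -K names and 0 of the other CBP names. Among -K names 10 of 15 tested lay below every keratinocyte library (beside 28.6% of all tested features). The other 5 tied with a keratinocyte library at 0. Of the 15, 14 had 0 fibroblast counts and could only lie below or tie. In the edgeR fit 9 -K names were lower (beside 21.5%), or 5 with limma-voom and 1 with the keratinocytes as a single group. Of all 15019 tested features, 3065 and 836 were lower in the last 2 fits. CBP56-K had 0 counts in fibroblasts, 137 CPM in the subconfluent library, 52.2, 28.4 and 23.7 CPM in monolayers and 894, 2630 and 2128 CPM in skin equivalents. It was at least 205-fold lower in fibroblasts than in any keratinocyte library. CBP15-K was at least 6.42-fold lower than in monolayer 3, at 0.745 CPM there.

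CBP17-F spanned 5.66-fold among keratinocytes, with 17.8 CPM in the subconfluent library, 17.4, 3.14 and 4.27 CPM in monolayers and 11.5, 12.7 and 16.7 CPM in skin equivalents. Fibroblasts had 0 counts, at least 27.0-fold under monolayer 2 (log2 fold change -11.56 ± 2.2 by edgeR, which depends on the prior count, adjusted p = 0.00597). CBP18-F, at 0.188 to 0.821 CPM in keratinocytes, was at least 1.62-fold lower, or at least 2.50-fold without the subconfluent library. Of 18 tested -S names 4 lay below (22.2%, beside 28.6% of all tested features). All 18 had 0 fibroblast counts, and the other 14 tied with a keratinocyte library at 0. The edgeR quasi-likelihood test called 0 of the 18, with 0 at an unadjusted p under 0.05. DESeq2 called 5 of them and limma-voom 0 (beside 3341 and 3065 of all 15019 tested features lower). Without skin equivalent 2, edgeR called 1 of the 12 -S names then tested (beside 2978 of all 14945). CBP55-S had 0.286 CPM in monolayer 3 and 1256 CPM in skin equivalent 2, and the lowest keratinocyte library put it at least 2.47-fold over fibroblasts. CBP52-S went down to 2 counts in monolayers 2 and 3, and neither was called (adjusted p = 0.126 and 0.191). Of 14 -C names 2 lay below (14.3%, beside the same 28.6%), or 5 without monolayer 3 (beside 4145 of all 14968 features then tested). All 14 had 0 fibroblast counts, and the other 12 tied with a keratinocyte library at 0. CBP11-C and CBP12-C rested on 1 count in the lowest library. The fit called 2 of the -C names (beside 21.5% of all tested features). It called 1 without monolayer 1 (beside 3962 of all 14935) and 3 without skin equivalent 2 (beside 2978 of all 14945). With limma-voom 0 were called (beside 3065 of all 15019). Against skin equivalents alone it called 13 of the 14 -C names, 7 of the 18 -S names and 12 of the 15 -K names. Of all 15019 tested features, 3242 were lower in that contrast. Against monolayers alone it called 0 -C, 0 -S and 4 -K names, beside 3458 of all 15019 lower.

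Outside keratins and cornification names, 5 of the authors' names were tested and 3 of them lay inside the keratinocyte range. IL1RN, named after the receptor antagonist that blocks interleukin-1 signalling, was the single name called higher in fibroblasts (log2 fold change 2.61 ± 0.53, adjusted p = 0.00778 by edgeR). It had 274 counts (10.6 CPM) in fibroblasts, 1.16 CPM in the subconfluent library and 0.842, 0.381 and 0.258 CPM in monolayers, and 12.3, 9.30 and 6.06 CPM in skin equivalents. Fibroblasts were 9.15-fold over the highest monolayer culture and under skin equivalent 1. The log2 fold change was 4.43 against monolayers (adjusted p = 0.00193) and 0.20 against skin equivalents (adjusted p = 0.819), and the call was lost with the keratinocytes as a single group (adjusted p = 0.638).

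IL36RN, named after the antagonist of interleukin-36 signalling, had 209 counts (8.08 CPM) in fibroblasts. The subconfluent library had 2.39 CPM, monolayers 4.61, 0.293 and 1.17 CPM, and skin equivalents 307, 384 and 134 CPM. Fibroblasts were thus 1.75-fold over the highest monolayer culture and 16.6-fold under the lowest skin equivalent, the reverse of the order of Krt7. Its mean contrast was not called (log2 fold change -0.44 ± 1.1, adjusted p = 0.772 by edgeR). Without monolayer 1 the log2 fold change was 0.078. The contrast with skin equivalents alone was called (-5.09, adjusted p = 0.0337 by edgeR), and that with monolayers alone was not (2.01, adjusted p = 0.165). WASF2-L, named after a regulator of actin assembly, had 3.36 CPM in fibroblasts and 1.18 to 9.90 CPM in keratinocytes and was not called (adjusted p = 0.372).

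**Figure D5:**
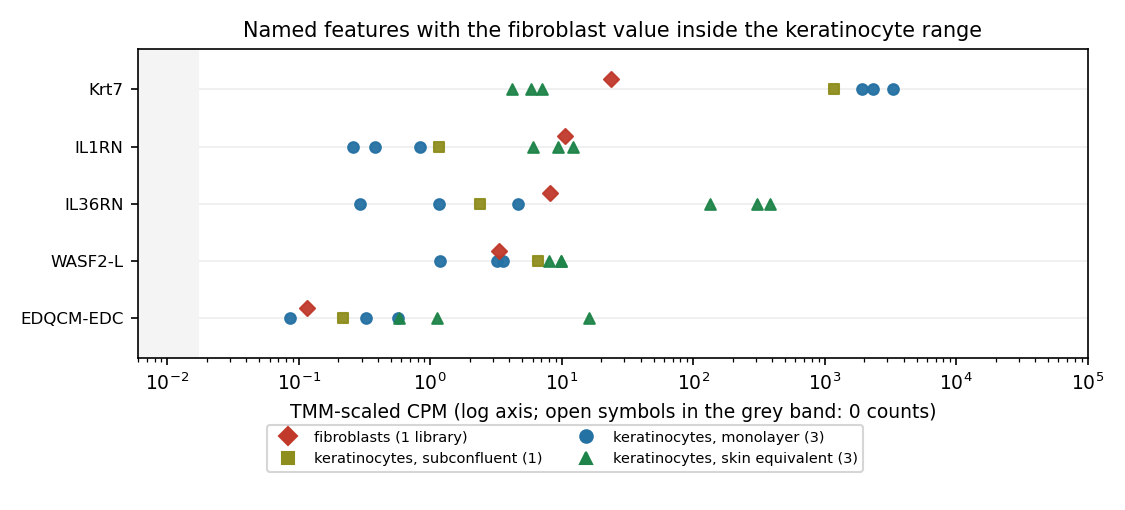
TMM-scaled CPM (log axis) in each library of the 5 named features whose fibroblast value (diamond) fell inside the keratinocyte range. Krt7 lay between skin equivalents (triangles, 4.22 to 7.11 CPM) and monolayer cultures (1187 to 3336 CPM), and IL36RN lay between them in the opposite order.

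EPPKL1, named after epiplakin, a protein that binds keratin filaments, had 3 counts in fibroblasts (0.116 CPM), 0.303 to 0.645 CPM in the 4 monolayer cultures and 341 to 647 CPM in skin equivalents. It lay below every keratinocyte library, but the ratio of 2.61 to monolayer 1 had a counting interval from 0.652, which spans equality. The edgeR fit called it as lower (log2 fold change -5.30 ± 0.74, adjusted p = 0.00185), though not against monolayers alone (-2.04, adjusted p = 0.0646). With the keratinocytes as a single group it was not called (adjusted p = 0.339). TMED had 4 counts in fibroblasts and 0.337 to 3.15 CPM in keratinocytes. Monolayer 1 was 2.18-fold over fibroblasts (counting interval 0.628 to 9.51, and 4.18-fold without that library), and the feature was not called (adjusted p = 0.0599), though it was without monolayer 1 (adjusted p = 0.0268), without the subconfluent library (0.0476) and with DESeq2 (0.0376).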

How the data were processed

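The members, lists and tests were chosen with earlier results of these data known. Per the labels, Trizol RNA was poly(A)-selected and made into directional libraries. Each deposited file gives raw counts by feature in whole numbers. Tools listed in the submitters' processing notes, with no step assigned, are STAR 2.6.1a, bcl2fastq 2.19.1.403, DESeq2 1.22.2 and RSEM. Genome build, annotation and strand setting were not given in the sources used here. No coordinates or sequences are printed, and members of multigene families and overlapping or antisense genes are uncertain. The 4 rows of fragments given to no gene stayed out of library sizes: unmapped 3.77% to 9.22%, multimapping 3.26% to 8.66%, unassigned 13.7% to 22.2% and ambiguous 0.485% to 2.53%. Gene counts were 27329706 to 36728801 per library.

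CPM used TMM factors over all 8 libraries. The test was edgeR 4.0.16 (quasi-likelihood, robust, R 4.3.3) in a fit of 4 groups, with Benjamini-Hochberg adjustment over 15019 features at 0.05. Standard errors, given after ±, are the absolute log2 fold change over the square root of the quasi-likelihood F statistic. They are approximate, and at 0 or few fibroblast counts they do not measure counting error. Alternatives used DESeq2 1.42.0 and limma 3.58.1. The scripts were tested on simulated data with changes planted in the fibroblast library. The fit recovered 46 of 100 features changed 4-fold and 87 of 100 changed 16-fold. It called 10 unchanged features, with 14350 tested. A feature not called can therefore still differ. The simulation gave the lone fibroblast library the spread of the replicated groups, so it cannot check that assumption. It changed far fewer features than the real fit called, so recovery in the real data can differ. Counting intervals are 95% exact binomial and, like floors of 3 counts, cover counting error only. The labels name no separate birds or cultures, so the p-values rest on a spread between libraries that may be technical. Libraries of a group differed beyond counting noise. The chi-square per degree of freedom was 22.3 between monolayers 2 and 3. It was 241 and 225 between monolayer 1 and these 2, and 138 to 227 among skin equivalents. The reference gene table pairs 0 of 25635 genes with an Ensembl identifier. Of 12 fixed marker lists 2 had a match, the keratins (10 of 22 symbols) and keratinocyte markers (1 of 42, Krt15), and the others had 0.

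Named features follow a rule: the 10 names below with the largest ratio at a mean log2 CPM of at least 1, the 2 largest ratios of each family, the 5 names with the most fibroblast counts, Krt7, Krt8, Krt15, Krt14L1, Krt18, Krt19, IL1RN, IL36RN and EPPKL1, and 2 identifiers each way.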

Additional observations from a re-analysis of the deposited data

Results flagged for a closer look

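Fragments ambiguous between genes, which enter no comparison, made up 2.53% of the fibroblast library and 0.485% to 0.815% of the 7 keratinocyte libraries. This was flagged as a signal in data outside the gene counts. Unassigned fragments were 13.7% in fibroblasts and 17.3% to 22.2% in keratinocytes, so the first share was higher and the second lower than in every keratinocyte library. The part of this in the gene counts was not tested.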

How the results depend on the processing

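The counts of separating features stayed within 1.5 times of the reported ones under total-count scaling (3576 above, 4824 below), DESeq2 size factors (4337, 3826), no filter (4764, 4470) and a filter of 50 counts in 1 library (3561, 3665). Leaving out single keratinocyte libraries gave 4036 to 4276 above and 4143 to 4636 below. Without the 3 skin equivalents 2634 features were at least 2-fold below, 723 at least 10-fold above and 726 at least 10-fold below, where fewer libraries set the range. In the fit, 3354 higher and 3234 lower became 1311 and 836 with keratinocytes as a single group, 2998 to 3882 and 2275 to 3962 without single libraries, 2991 and 3693 with total counts, 3682 and 2756 with DESeq2 size factors, 3501 and 3341 with DESeq2, and 3469 and 3065 with limma-voom. The median log2 fold change over tested features was -0.19, and -0.37 with total counts. Keratins lower in the fit numbered 22 to 27 under the other alternatives and 9 with keratinocytes as a single group. The 34 features picked by the rule above, its identifiers included, had 577 alternative values. Of these, 534 stayed on their side of the threshold, 28 lost and 11 gained a call, and 4 changed sign. The sign changed for Krt7 against skin equivalents (2.06) and WASF2-L against monolayers (0.34). It also changed for IL36RN against monolayers (2.01) and without monolayer 1 (0.078, with -1.48 to 0.078 without single libraries). The keratin share difference of -6.41 percentage points was -7.21 to -5.35 without single libraries and -1.98 outside the 10 most abundant features of each library. For the EDC it was -0.58, with -0.67 to -0.33 without single libraries, and for CBP -K -0.81, with -0.94 to -0.57. The replicate block, with the title code as a term among keratinocytes, gave 3156 higher and 2854 lower, and Krt18 was no longer called (adjusted p = 0.0536). Same-numbered monolayers and skin equivalents had correlations of deviations of -0.04, -0.11 and 0.15, which does not meet the rule for treating them as pairs. Whether a shared title code marks a shared bird or culture is not stated in the labels. Fibroblasts have 1 library, which limits every comparison, and at 0 fibroblast counts depth sets a floor of 0.116 CPM.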
